A study of Mus musculus with 6 samples.

Results

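The genes described here are those of cholesterol synthesis and of the sterol-sensing transcription factors that control it, 37 of the 19630 genes listed in the deposited table. They were chosen by gene symbol and comprise 20 enzymes from acetoacetyl-CoA to cholesterol, 5 regulators of the sterol regulatory element binding proteins (SREBPs), the sterol carrier gene *Stard4*, 9 fatty acid genes that SREBPs activate, and 2 sterol exporters. All 37 had a mean scaled count of at least 10 and so were among the 16674 genes tested.

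The RNA came from Nes-CFP-positive cells, which carry a cyan fluorescent reporter of the Nestin gene, sorted by flow cytometry at postnatal day 5 from the cerebellum of Swiss webster mice of genotype Nes-CFP/+. The 3 control libraries came from non-irradiated cerebellum and the 3 irradiated libraries from cerebellum irradiated at postnatal day 1. All 6 share strain, genotype, age and the reporter, and the sort takes any cell with reporter signal rather than a single lineage. The labels do not give the number of animals per library or the radiation dose. The p-values set the group difference against the spread of these libraries within groups. That spread may be partly technical and may not stand for the spread between animals.

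Cholesterol is built from acetyl-CoA through mevalonate, squalene and lanosterol, and the brain makes its own because lipoproteins of the blood do not cross into it. Glia, including astrocytes and myelinating oligodendrocytes, are known for high activity of the route, and cholesterol is also needed for Hedgehog signalling in granule cell progenitors. When sterols are scarce, the escort protein SCAP carries SREBPs from the endoplasmic reticulum to the Golgi, where proteases release them to activate these genes. INSIG proteins hold the complex back when sterols are plentiful, and oxysterols then activate LXR receptors, which induce the exporters ABCA1 and ABCG1.

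Transcripts of the route were lower after irradiation in nearly every fitted comparison, by small amounts that did not pass the test. Of the 20 enzymes 19 had a lower fitted level, with a median log2 fold change of -0.23, where the median over all genes tested was -0.0028 and 50.6% of genes had a lower and 49.4% a higher fitted level. Over all 37 members 32 were lower and 5 higher (median -0.17). The members were measured in the same 6 libraries and are not independent replicates, so a shift of a few libraries can count in many genes. The enzyme median was -0.14 without control replicate 1, and the median of all members was -0.0906 without irradiated replicate 3. In a fit that also took in Y-linked expression, averaged over 4 genes on the log2 scale, these 2 medians were -0.11 and -0.0836. No member passed the test, limma-trend with p adjusted by Benjamini-Hochberg over all genes tested and a threshold of 0.05. It called 9 of 16674 genes, 0.054% (0.012% lower and 0.042% higher), and the lowest limma adjusted p of a member was 0.903, for *Sc5d*. At an unadjusted limma p below 0.05 there were 7 members, all lower, where 4.5% of all genes tested reached that level (2.08% lower and 2.42% higher). edgeR and DESeq2 also called 0 members, against 0.048% and 0.636% of genes, and each had 7 members at an unadjusted p below 0.05. That number was 1 without control replicate 1, 2 without control replicate 3, 11 without irradiated replicate 1, 0 without irradiated replicate 2 and 2 without irradiated replicate 3.

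Scaled counts are the deposited values, reads divided by a DESeq size factor, with the added 1 taken off. Means are given ± SD with n = 3 per group. Ratios are irradiated over control from the limma fit of log2(scaled count + 1), with 95% intervals that are not adjusted for the number of genes. Libraries held 30986269 to 37067530 reads assigned to listed genes, and the lowest read count of a member in any library was 319. As a check of the labels, *Cdkn1a*, the p53-induced cell cycle inhibitor gene, had scaled counts of 289, 235 and 402 in the control libraries and 1470, 1843 and 1831 in the irradiated ones, and it was called higher, with a limma adjusted p of 0.00372. *Nes*, the gene behind the reporter, had scaled counts of 10049, 8389 and 9101 in the control libraries and 13492, 11556 and 7461 in the irradiated ones. Its groups overlapped.

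**Figure D1:**
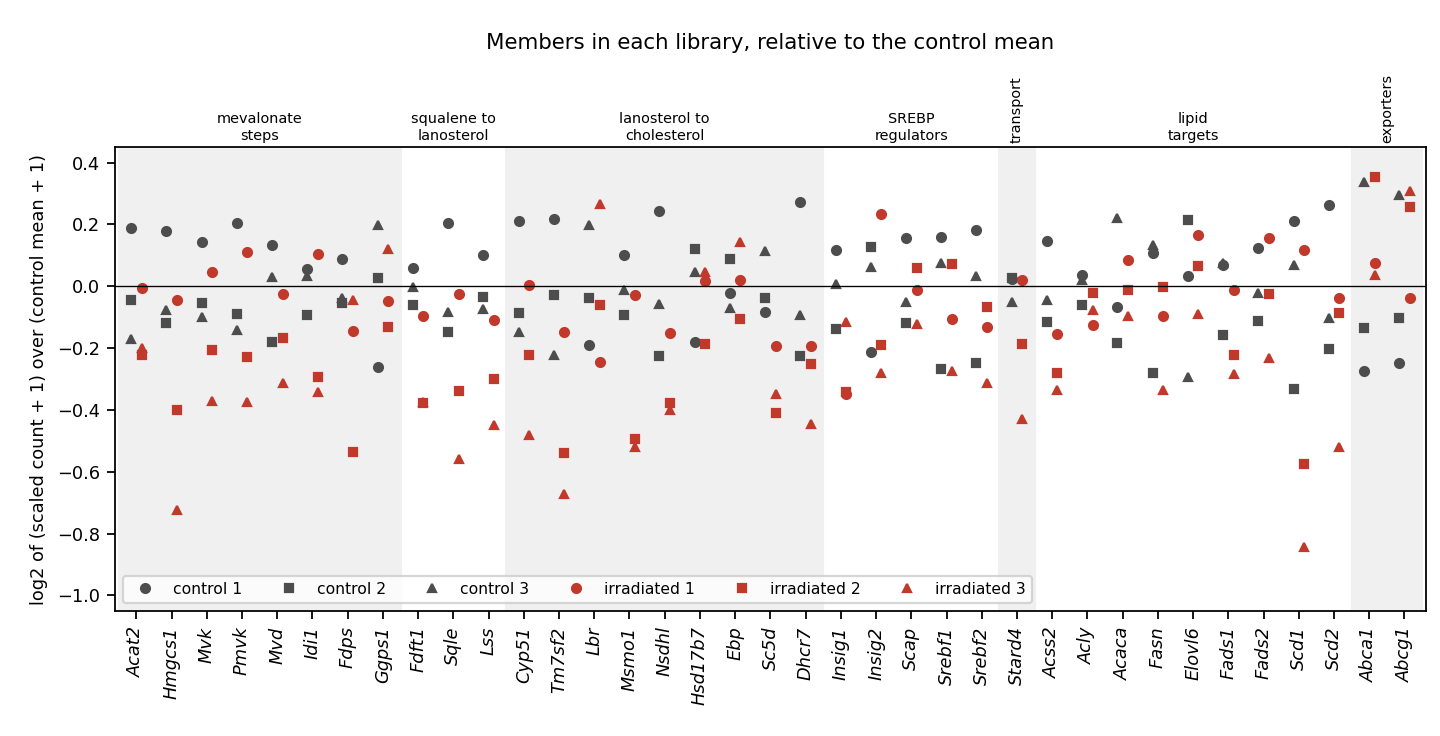
Scaled count of each member in each library, as log2 relative to the mean of the 3 control libraries. Each point is a library, grey for control and red for irradiated, with the replicate number shown by the marker. Most enzymes have their lowest points in irradiated replicates 2 and 3 and their highest in control replicate 1.

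Promoters of 4 genes are shown because SREBPs act there together with the CCAAT-binding factor NF-Y, and because these genes, from successive steps and from the feedback regulator, were among the 7 members with the lowest unadjusted p-values. The windows are from RefSeq on GRCm38.p6 and run from 250 bases before to 50 bases after the annotated start. Capitals mark the sterol regulatory element core TCACNCCAC and the CCAAT box, on either strand (ATTGG on the other). Their positions are *Hmgcs1* chr13:119690101-119690400, plus strand; *Lss* chr10:76531355-76531654, plus strand; *Sc5d* chr9:42264251-42264550, minus strand; and *Insig1* chr5:28071162-28071461, plus strand.
Hmgcs1: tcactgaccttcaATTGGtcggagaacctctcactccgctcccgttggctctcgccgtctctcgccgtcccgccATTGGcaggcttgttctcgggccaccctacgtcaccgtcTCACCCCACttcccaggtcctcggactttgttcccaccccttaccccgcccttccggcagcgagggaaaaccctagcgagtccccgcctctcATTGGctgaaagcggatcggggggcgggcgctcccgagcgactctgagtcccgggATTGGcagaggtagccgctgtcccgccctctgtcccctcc
Lss: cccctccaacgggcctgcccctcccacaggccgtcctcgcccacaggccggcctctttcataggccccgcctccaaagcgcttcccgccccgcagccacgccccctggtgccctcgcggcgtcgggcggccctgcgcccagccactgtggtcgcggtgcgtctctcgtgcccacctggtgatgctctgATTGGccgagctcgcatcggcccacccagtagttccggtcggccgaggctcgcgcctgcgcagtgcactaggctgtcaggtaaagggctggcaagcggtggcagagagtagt
Sc5d: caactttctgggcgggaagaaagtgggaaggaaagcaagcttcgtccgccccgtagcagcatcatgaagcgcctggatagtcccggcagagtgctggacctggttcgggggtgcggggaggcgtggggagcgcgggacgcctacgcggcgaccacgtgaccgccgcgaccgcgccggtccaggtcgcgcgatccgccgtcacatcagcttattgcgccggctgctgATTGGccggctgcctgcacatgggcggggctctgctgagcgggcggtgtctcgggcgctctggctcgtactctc
Insig1: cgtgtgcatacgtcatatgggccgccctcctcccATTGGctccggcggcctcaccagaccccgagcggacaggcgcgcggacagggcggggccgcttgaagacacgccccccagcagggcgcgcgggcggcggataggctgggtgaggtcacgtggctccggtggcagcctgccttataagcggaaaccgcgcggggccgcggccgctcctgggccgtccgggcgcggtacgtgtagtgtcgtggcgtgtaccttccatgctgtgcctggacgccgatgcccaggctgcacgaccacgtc

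A window was found for 29 of the 37 members, 37 windows in all since 5 members have several, and *Fdps*, *Fdft1*, *Sqle*, *Stard4*, *Fads1*, *Scd1*, *Scd2* and *Abcg1* had none. The core TCACNCCAC was searched on both strands and occurred in *Hmgcs1* alone among the members with a window, beginning 137 bases before the start, and in 1.44% of the 27025 genes with a window. The *Hmgcs1* window also held 4 CCAAT boxes, none overlapping the core. A CCAAT box stood in 23 of 29 members (79.3%) and in 41.1% of all genes with a window. Counted per window, that is 64.9% of the members' windows and 37.4% of all windows. The GC box GGGCGG, bound by SP1, stood in 24 of 29 members (82.8%) and in 38.2% of all genes, and the E-box CACGTG in 6 of 29 (20.7%) and in 8.09% of all genes. The shares of all genes cover every gene with a window, without a filter on gene type or level, while the members are all protein-coding and tested. The 2 sets are therefore unlike, and the difference between them was not tested. These matches describe letters in a short window and do not show that a factor binds there.

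The mevalonate steps turn acetoacetyl-CoA into the isoprenoid building blocks of sterols. All 8 genes of this group had a lower fitted level (median log2 fold change -0.17), and 5 were lower in each of the 3 same-numbered pairs. *Hmgcs1* (ENSMUSG00000093930.1, chr13:119690379-119708260 on GRCm38), encoding the HMG-CoA synthase that commits carbon to the route, had scaled counts of 30091, 24472 and 25184 in the control libraries and 25760, 20132 and 16080 in the irradiated ones. Irradiated replicates 2 and 3 lay below every control library, while irradiated replicate 1 lay among the controls, so the groups overlapped. The means were 26583 ± 3059 in control and 20658 ± 4861 in irradiated libraries, with a fitted ratio of 0.766 (95% interval 0.589 to 0.997). Within same-numbered pairs the ratio was 0.856, 0.823 and 0.638. Its limma adjusted p was 1.

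The other genes of this group had fitted log2 fold changes nearer to 0. *Fdps*, encoding farnesyl diphosphate synthase, stood at 768 ± 42.1 in control and 656 ± 113 in irradiated libraries, with a fitted ratio of 0.847 (95% interval 0.665 to 1.08). *Mvk*, *Pmvk* and *Mvd*, which encode the kinases and the decarboxylase acting on mevalonate, had fitted ratios of 0.887, 0.898 and 0.893. *Idi1*, the isomerase gene that follows them, had a ratio of 0.885, and *Acat2*, encoding the cytosolic thiolase that opens the route, 0.911. *Ggps1*, which leads away from sterols to geranylgeranyl diphosphate for protein prenylation, stood at 939.9 ± 147 in control and 930.3 ± 83.5 in irradiated libraries, with a fitted ratio of 0.996 (95% interval 0.791 to 1.25). Its fitted log2 fold change of -0.0064 was the nearest to 0 of this group. Of the 50-base windows in the annotated transcripts, 39.1% for *Acat2*, 26.2% for *Fdps* and 17.7% for *Idi1* also occur in transcripts of other genes (*Acat3* for *Acat2*, the overlapping protein-coding gene *Gm43738* among others for *Fdps*, and processed pseudogenes for *Idi1*), so reads could be split between copies and their levels are uncertain.

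The conversion of farnesyl diphosphate to lanosterol takes 3 enzymes, and all 3 were lower in every same-numbered pair, as were 14.4% of all genes tested. *Sqle* (ENSMUSG00000022351.14, chr15:59315077-59331192), encoding the squalene epoxidase that is a rate-controlling oxygenation, had scaled counts of 9211, 7207 and 7533 in the control libraries and 7841, 6312 and 5421 in the irradiated ones. Irradiated replicate 1 exceeded control replicates 2 and 3, and the other irradiated libraries lay below all controls. The means were 7984 ± 1075 in control and 6525 ± 1224 in irradiated libraries, with a fitted ratio of 0.813 (95% interval 0.642 to 1.03).

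*Lss* (ENSMUSG00000033105.12, chr10:76531588-76557138), encoding the cyclase that folds the squalene epoxide into lanosterol, had scaled counts of 3034, 2764 and 2687 in the control libraries and 2624, 2295 and 2071 in the irradiated ones. Every irradiated library lay below every control library. The means were 2828 ± 183 in control and 2330 ± 278 in irradiated libraries, with a fitted ratio of 0.821 (95% interval 0.683 to 0.987). *Fdft1* (ENSMUSG00000021273.9, chr14:63145150-63179578), encoding squalene synthase, had scaled counts of 3577, 3288 and 3427 in the control libraries and 3213, 2640 and 2648 in the irradiated ones, and its groups did not overlap either. The means were 3431 ± 144 in control and 2834 ± 328 in irradiated libraries, with a fitted ratio of 0.823 (95% interval 0.691 to 0.980). Groups that did not overlap, with irradiated lower, were found for 4.01% of all genes tested (4.83% with irradiated higher, 8.83% in all) and for 4 of the 37 members, *Fdft1*, *Lss*, *Sc5d* and *Acss2*. The limma adjusted p was 1 for *Sqle*, *Lss* and *Fdft1*.

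From lanosterol to cholesterol, 8 of 9 genes had a lower fitted level (median log2 fold change -0.28), and 6 of the 9 were lower in all 3 pairs. *Tm7sf2* (ENSMUSG00000024799.14, chr19:6062821-6068373), encoding a sterol reductase of the endoplasmic reticulum, had the fitted log2 fold change farthest from 0 of all 37 members. Its scaled counts were 1436, 1212 and 1058 in the control libraries and 1114, 850 and 775 in the irradiated ones. The lowest control library lay between irradiated replicates 1 and 2, so the groups overlapped. The means were 1235 ± 191 in control and 913 ± 178 in irradiated libraries (a log2 fold change of -0.44 with SE 0.17), with a fitted ratio of 0.737 (95% interval 0.566 to 0.959). Within same-numbered pairs the ratio was 0.776, 0.702 and 0.733, and the limma adjusted p was 0.991.

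*Lbr* encodes the lamin B receptor, a nuclear envelope protein whose sterol reductase activity overlaps that of the *Tm7sf2* product. It had scaled counts of 3216, 3574 and 4208 in the control libraries and 3096, 3511 and 4406 in the irradiated ones, and the groups spanned nearly the same range. The means were 3666 ± 502 in control and 3671 ± 669 in irradiated libraries, with a fitted ratio of 0.997 (95% interval 0.787 to 1.26). The difference between *Tm7sf2* and *Lbr* was not tested.

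*Sc5d* (ENSMUSG00000032018.13, chr9:42251595-42264256), encoding a late sterol desaturase, had scaled counts of 2145, 2213 and 2463 in the control libraries and 1988, 1710 and 1784 in the irradiated ones. The groups did not overlap, and irradiated replicate 2 was the lowest library. The means were 2274 ± 167 in control and 1827 ± 144 in irradiated libraries (a log2 fold change of -0.32 with SE 0.11), with a fitted ratio of 0.804 (95% interval 0.676 to 0.956). *Cyp51* (ENSMUSG00000001467.5, chr5:4081145-4104746), encoding the demethylase that acts on lanosterol and the gene of this group with the highest mean count, had scaled counts of 11759, 9565 and 9173 in the control libraries and 10207, 8716 and 7285 in the irradiated ones. Irradiated replicate 1 lay above control replicates 2 and 3. The means were 10166 ± 1394 in control and 8736 ± 1461 in irradiated libraries, with a fitted ratio of 0.857 (95% interval 0.682 to 1.08).

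*Msmo1* and *Nsdhl* encode enzymes that remove methyl groups from the sterol ring. *Msmo1* stood at 5055 ± 342 in control and 4025 ± 809 in irradiated libraries, with a fitted ratio of 0.787 (95% interval 0.631 to 0.982), and *Nsdhl* at 3185 ± 535 in control and 2577 ± 252 in irradiated libraries (a log2 fold change of -0.30 with SE 0.14). *Hsd17b7*, the ketoreductase gene of the same demethylation, stood at 1302 ± 138 in control and 1269 ± 109 in irradiated libraries, with a fitted ratio of 0.976 (95% interval 0.800 to 1.19). *Dhcr7*, encoding the reductase of the last step of one branch, stood at 4578 ± 843 in control and 3737 ± 335 in irradiated libraries, with a fitted ratio of 0.823 (95% interval 0.661 to 1.03). *Ebp*, the sterol isomerase gene, was the single enzyme with a higher fitted level, at 766 ± 43.7 in control and 778 ± 67.5 in irradiated libraries (a log2 fold change of 0.02 with SE 0.13). *Lbr*, *Hsd17b7*, *Ebp* and *Ggps1* each had a fitted log2 fold change from -0.0354 to 0.0214, and the other 16 enzymes lay between -0.44 and -0.14.

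**Figure D2:**
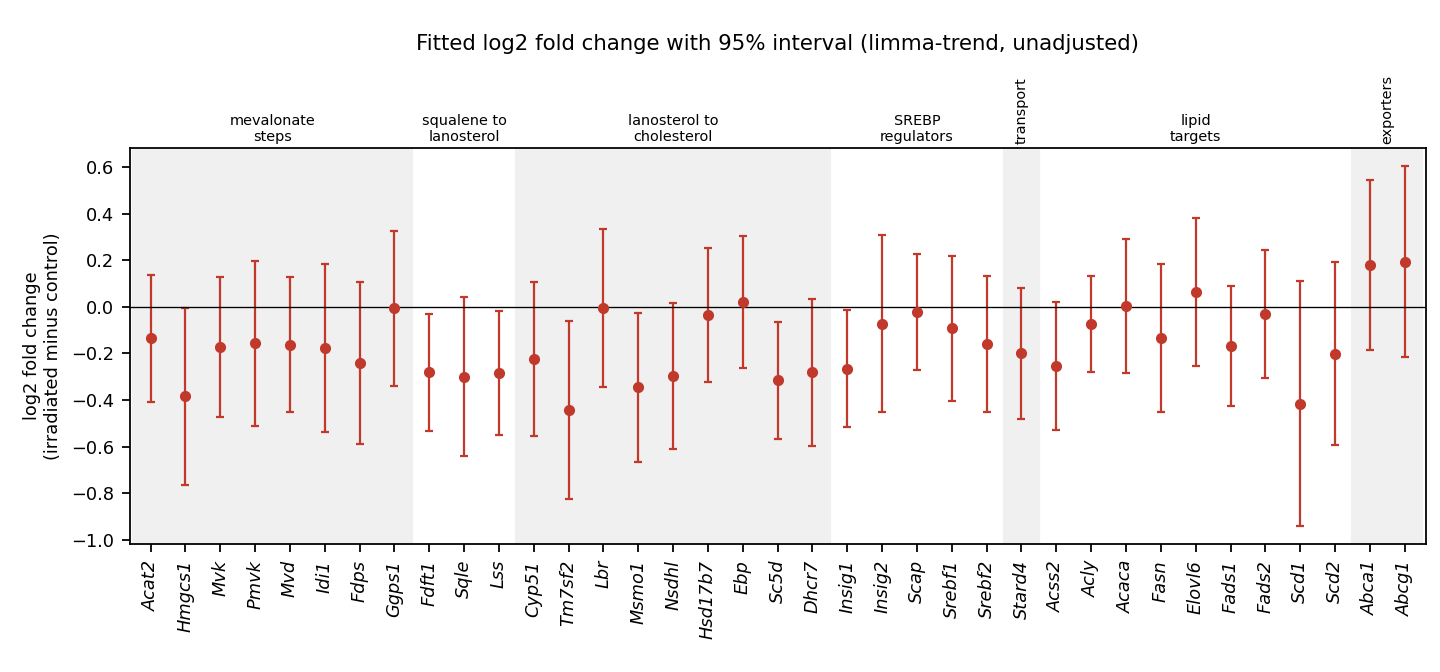
Fitted log2 fold change of each member, irradiated minus control, with its unadjusted 95% interval from limma-trend on 3 libraries per group. The interval lies wholly below 0 for 7 members (*Hmgcs1*, *Fdft1*, *Lss*, *Tm7sf2*, *Msmo1*, *Sc5d* and *Insig1*), and it includes 0 for both exporters.

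The 5 regulators of SREBP activity all had a lower fitted level, with a median log2 fold change of -0.0925, and their difference from the enzymes was not tested. *Insig1* (ENSMUSG00000045294.11, chr5:28071363-28078662), itself an SREBP target and the retention factor of the complex, had scaled counts of 6637, 5565 and 6154 in the control libraries and 4807, 4831 and 5643 in the irradiated ones. Irradiated replicates 1 and 2 lay below all controls and irradiated replicate 3 lay just above control replicate 2. The means were 6119 ± 537 in control and 5094 ± 476 in irradiated libraries, with a fitted ratio of 0.832 (95% interval 0.699 to 0.991). *Insig2*, a related retention factor, stood at 755 ± 92 in control and 723 ± 143 in irradiated libraries, with a fitted ratio of 0.952 (95% interval 0.731 to 1.24).

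*Srebf2* (ENSMUSG00000022463.7, chr15:82147181-82205379), encoding the SREBP that mainly drives cholesterol genes, had scaled counts of 14569, 10806 and 13125 in the control libraries and 11716, 12262 and 10337 in the irradiated ones. The groups overlapped, and the highest value belonged to control replicate 1. The means were 12833 ± 1899 in control and 11438 ± 992 in irradiated libraries, with a fitted ratio of 0.896 (95% interval 0.731 to 1.10). *Srebf1*, encoding the SREBP that mainly drives fatty acid genes, stood at 10976 ± 1647 in control and 10262 ± 1231 in irradiated libraries, with a fitted ratio of 0.938 (95% interval 0.755 to 1.16), and *Scap*, the escort gene, at 3550 ± 359 in control and 3491 ± 219 in irradiated libraries, with a fitted ratio of 0.985 (95% interval 0.829 to 1.17). In pair 2 the irradiated library was the higher for *Srebf1*, *Srebf2* and *Scap*, and in pairs 1 and 3 it was the lower. *Stard4*, encoding a soluble sterol carrier and an SREBP target, had scaled counts of 3762, 3770 and 3579 in the control libraries and 3756, 3254 and 2748 in the irradiated ones. Irradiated replicate 1 lay among the controls and the other irradiated libraries lay below them, for means of 3704 ± 108 in control and 3253 ± 504 in irradiated libraries and a fitted ratio of 0.872 (95% interval 0.717 to 1.06).

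Among the 9 fatty acid genes, 7 had a lower and 2 a higher fitted level (median log2 fold change -0.13), and 3 were lower in all pairs. That median moved with single libraries, to -0.0607, -0.24 and -0.0760 without control replicates 1, 2 and 3, and to -0.0470 without irradiated replicate 3. *Scd2* (ENSMUSG00000025203.5, chr19:44293674-44306864), the stearoyl-CoA desaturase that predominates in mouse brain, had scaled counts of 142112, 102682 and 110140 in the control libraries and 115339, 111463 and 82464 in the irradiated ones. The groups overlapped, with control replicate 1 the highest and irradiated replicate 3 the lowest. The means were 118311 ± 20947 in control and 103089 ± 17966 in irradiated libraries, with a fitted ratio of 0.871 (95% interval 0.663 to 1.14). Its paralogue *Scd1* (ENSMUSG00000037071.2, chr19:44394455-44407879) had scaled counts of 3196, 2190 and 2893 in the control libraries and 2993, 1854 and 1539 in the irradiated ones, for means of 2759 ± 516 in control and 2129 ± 765 in irradiated libraries and a fitted ratio of 0.750 (95% interval 0.521 to 1.08). Irradiated replicate 1 exceeded 2 of the 3 controls, and the interval of *Scd1* was the widest of the group on the log2 scale.

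*Acss2* (ENSMUSG00000027605.18, chr2:155517948-155585724), encoding the cytosolic enzyme that makes acetyl-CoA from acetate, had scaled counts of 1272, 1062 and 1115 in the control libraries and 1033, 946 and 910 in the irradiated ones. Its groups did not overlap, the means were 1150 ± 109 in control and 963 ± 63.3 in irradiated libraries, and there was a fitted ratio of 0.839 (95% interval 0.693 to 1.02). *Acly*, which makes acetyl-CoA from citrate, stood at 10040 ± 355 in control and 9540 ± 346 in irradiated libraries, and *Acaca* and *Fasn*, encoding acetyl-CoA carboxylase and fatty acid synthase, had log2 fold changes of 0.0022 and -0.13. For *Acaca*, 30.4% of the 50-base windows also occur in other genes, mainly a processed pseudogene. *Fads1* and *Fads2*, genes of polyunsaturated fatty acid desaturases, had ratios of 0.890 and 0.979, and *Elovl6*, an elongase gene, 1.04.

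The exporters were the only step in which all members had a higher fitted level. *Abca1* (ENSMUSG00000015243.4, chr4:53030787-53159895), which hands cholesterol to apolipoproteins, had scaled counts of 5583, 6153 and 8528 in the control libraries and 7118, 8634 and 6925 in the irradiated ones. The groups overlapped, with the highest value in irradiated replicate 2 and the next in control replicate 3. The means were 6755 ± 1562 in control and 7559 ± 936 in irradiated libraries, with a fitted ratio of 1.13 (95% interval 0.879 to 1.46). *Abcg1* (ENSMUSG00000024030.6, chr17:31057675-31117988), which exports sterol to lipoprotein particles, had scaled counts of 335, 371 and 488 in the control libraries and 388, 475 and 493 in the irradiated ones. The groups overlapped, and both libraries numbered 3 were near the top of the range. The means were 398 ± 80.3 in control and 452 ± 56.3 in irradiated libraries, with a fitted ratio of 1.14 (95% interval 0.860 to 1.52). *Abcg1* was higher in all 3 pairs, as were 15.4% of all genes tested.

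**Figure D3:**
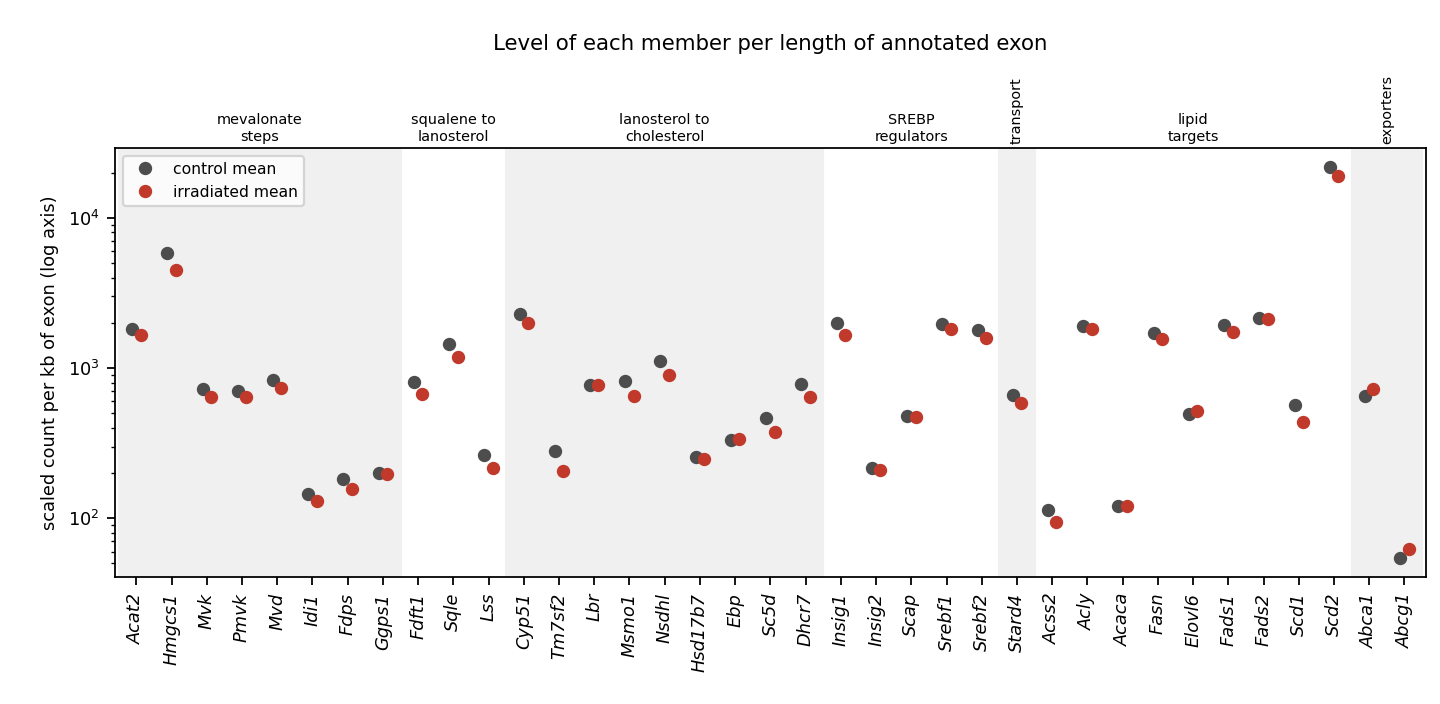
Mean scaled count of each member per kilobase of annotated exon, on a log axis, in the 3 control (grey) and 3 irradiated (red) libraries. *Scd2* has the highest level per length of the 37 members and *Abcg1* the lowest.

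Levels per length of annotated exon spread over a wide range along the route. In controls *Scd2* had 21653 ± 3834 scaled counts per kilobase and *Hmgcs1* had 5786 ± 666, the highest of the enzymes. *Cyp51* had 2303 ± 316, *Acat2* 1825 ± 235 and *Sqle* 1440 ± 194 per kilobase, while *Idi1* had 145 ± 7.86, the lowest of the enzymes. The regulators *Insig1*, *Srebf1* and *Srebf2* had levels of 1978 ± 174, 1948 ± 292 and 1786 ± 264 per kilobase, and *Insig2* had 217 ± 26.5. *Abcg1* had the lowest level of the members, 54.5 ± 11 per kilobase, and *Abca1* 652 ± 151. Exon length was taken as the union over all annotated transcripts, so a gene with long rare isoforms has its level understated. The levels of *Acat2* and *Idi1* are also uncertain because 39.1% and 17.7% of their 50-base windows occur in other genes.

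Compared within pairs of the same replicate number, 16, 19 and 17 of the 20 enzymes were lower in the irradiated library of pairs 1, 2 and 3, and the share of all genes was 50.6%, 47.8% and 51.3%. The median log2 ratio over the enzymes was -0.16, -0.19 and -0.34 in pairs 1, 2 and 3. For the 9 fatty acid genes it was -0.0946, 0.0378 and -0.32, and for the exporters 0.28, 0.42 and -0.14. Of the 37 members 19 were lower in all 3 pairs, where 14.4% of all genes tested were, and 14 of those were enzymes. With the replicate number as a block, limma gave 13 members with an unadjusted p below 0.05, all lower (4.24% of genes tested were lower and 8.29% reached that level in all), and still called 0 members, with a lowest limma adjusted p of 0.204 for *Tm7sf2*. That fit called 0.15% of the genes tested.

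The libraries of a group also differed among themselves. Control replicate 1 held the highest value of 14 of the 20 enzymes, where it held the highest of 18.7% of all genes tested. Irradiated replicate 3 held the lowest value of 12 of the 20, where it held the lowest of 23.9% of all genes. Relative to each gene's mean over the 6 libraries, the median enzyme stood at 0.24, 0.0391 and 0.0795 on the log2 scale in control replicates 1, 2 and 3, and at 0.0544, -0.16 and -0.25 in irradiated replicates 1, 2 and 3. Irradiated replicate 1 thus lay within the range of the controls and the other irradiated libraries lay below it.

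**Figure D4:**
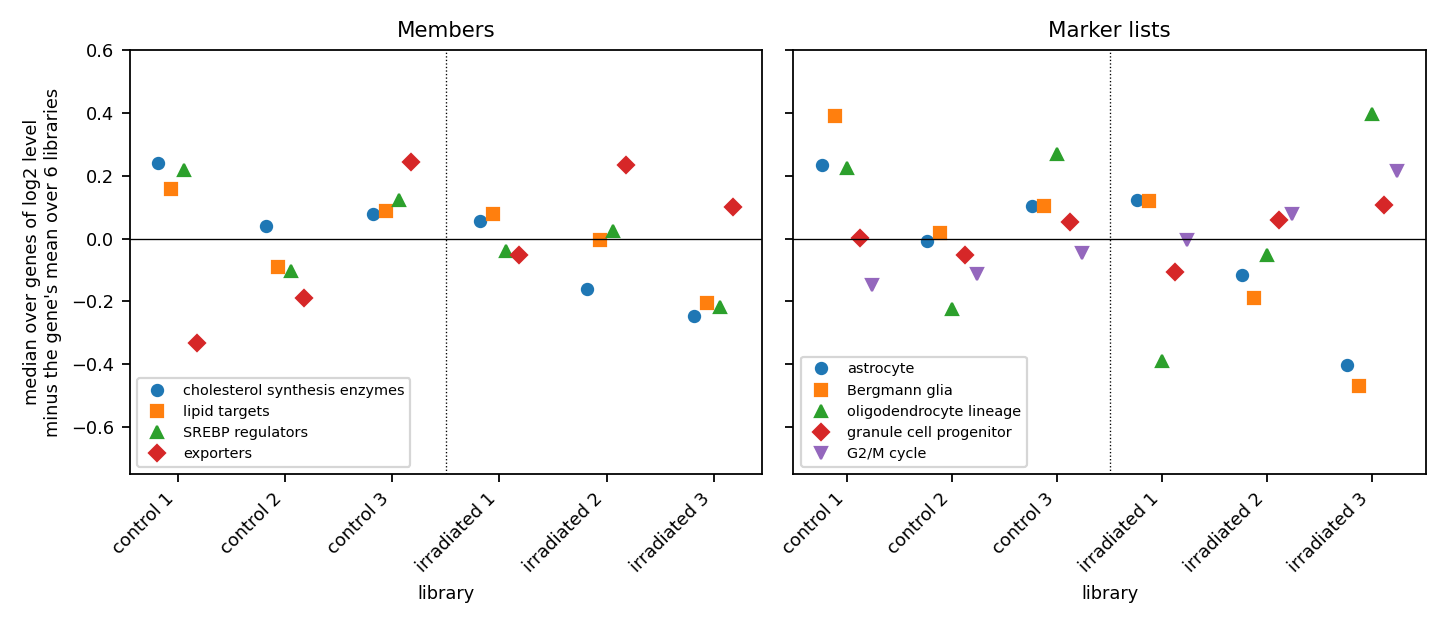
Median over the genes of each list of the log2 level minus the gene's mean over the 6 libraries, for groups of members (left) and marker lists of cell types (right). Each point is a list in a library. Enzymes and astrocyte markers are both highest in control replicate 1 and lowest in irradiated replicate 3.

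Markers of glial cells varied between the same libraries. Of 9 astrocyte markers 8 were lower in the fit, with 0 called and a median log2 fold change of -0.26. Their summed scaled count was 488464 to 595516 in controls and 355217 to 550345 after irradiation, and none was at 0. Among them *Aqp4*, the water channel gene of astrocytes, stood at 58720 ± 2873 in control and 43174 ± 7333 in irradiated libraries, without overlap. *Gja1*, a gap junction gene of astrocytes, was the marker with a higher fitted level, at 5610 ± 885 in control and 7211 ± 1243 in irradiated libraries (a log2 fold change of 0.36 with SE 0.16), and was higher in all 3 pairs. Of 7 Bergmann glia markers 6 were lower (median -0.31), 0 were called, and the sum was 143230 to 201976 in controls and 133091 to 172507 after irradiation. Oligodendrocyte lineage markers, of which 5 of 9 tested were lower (median -0.0201), summed to 30497 to 45889 in controls and 32764 to 47758 after irradiation, and the myelin gene *Mog* was below the filter with a mean of 9.93 in controls and 6.09 after irradiation.

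The summed scaled count of the 20 enzymes was 15.7%, 16.2% and 15.8% of the summed astrocyte markers in control replicates 1, 2 and 3, and 14.8%, 14.4% and 17.4% in irradiated replicates 1, 2 and 3. Of the summed Bergmann glia markers it was 46.4%, 55.1% and 47.3% in control replicates 1, 2 and 3 and 47.2%, 39.5% and 46.5% in irradiated replicates 1, 2 and 3. Of the summed oligodendrocyte lineage markers it was 204%, 259% and 182% in the controls and 248%, 175% and 129% in the irradiated libraries, in the same order. All these shares overlapped between groups, and irradiated replicate 3 had the highest share against astrocyte markers and the lowest against oligodendrocyte lineage markers. The sums rest largely on a few genes. *Slc1a3* and *Sparcl1* stood at 219189 ± 33323 and 173320 ± 19229 in control libraries, and the Bergmann glia markers *Gdf10* and *Ptprz1* at 60867 ± 13260 and 53075 ± 8817. The log2 fold changes of *Gdf10* and *Ptprz1* were 0.11 and -0.0407, where the median of their list was -0.31. The part of glial markers in the enzyme values was not tested, and in bulk RNA fewer cells of a type and less RNA per cell cannot be told apart. Granule cell progenitor markers summed to 61328 to 61889 in controls and 57916 to 63009 after irradiation, with 4 of 8 lower (median -0.0102). That sum rests largely on *Zic1*, at 30054 ± 693 in control libraries. *Atoh1*, a low-level marker of the list, stood at 225 ± 91.1 in control and 482 ± 199 in irradiated libraries (a log2 fold change of 1.08 with SE 0.36). It was higher in all 3 pairs, but its groups overlapped and it was not called (limma adjusted p = 0.837). All 6 G2/M cycle genes were higher (median 0.21), with 0 called, and summed to 57489 to 64725 in controls and 66805 to 77668 after irradiation, without overlap. Interneuron lineage markers, 7 of 7 lower (median -0.47), summed to 8994 to 13556 and 9519 to 10685, and 0 were called. With the replicate block 1 of them was called lower, *Pax2*, a transcription factor gene of interneuron precursors (limma adjusted p = 0.0442, and 0.237 without the block), at 605 ± 117 in control and 296 ± 71.2 in irradiated libraries.

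The remaining marker lists had low sums. Lower fitted levels were found for 7 of 7 pericyte and fibroblast markers (median -0.31), 4 of 5 endothelial (median -0.18), 2 of 6 microglial (median 0.20) and 1 of 4 Purkinje cell markers (median 0.46), and the part of these lists in the enzyme values was not tested. Microglia summed to 1142 to 2913 in controls and 1712 to 2817 after irradiation, endothelium to 2567 to 3507 and 2066 to 3220, pericytes and fibroblasts to 5686 to 6443 and 4977 to 5873, and Purkinje cells to 4089 to 5845 and 5291 to 6231. None of these lists had a member called. Summed Y-linked transcripts, which come from male cells, were 1536, 2303 and 5095 in control replicates 1, 2 and 3 and 3939, 5086 and 8911 in irradiated replicates 1, 2 and 3. Their part in the enzyme values was not tested further than by a fit. With the mean log2 level of the 4 Y-linked genes as a covariate, the median log2 fold change of the enzymes was -0.11. In that fit 15 of 20 enzymes were lower, and 2 members had an unadjusted limma p below 0.05. The exporters then had negative log2 fold changes, -0.0836 for *Abca1* and -0.14 for *Abcg1*.

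Other genes of sterol and lipid handling, 36 in the list and 35 tested, included 25 lower and 10 higher in the fit (median log2 fold change -0.0895), with 0 called in either direction. *Pcyt2*, encoding an enzyme of phosphatidylethanolamine synthesis, had scaled counts of 1938, 1979 and 1483 in the control libraries and 1470, 1296 and 1155 in the irradiated ones. Its groups did not overlap, and it was lower in all 3 pairs (a log2 fold change of -0.46 with SE 0.15, limma adjusted p = 0.836). *Scarb1*, the gene of a receptor for high-density lipoprotein, stood at 2734 ± 411 in control and 2172 ± 272 in irradiated libraries (a log2 fold change of -0.33 with SE 0.14, limma adjusted p = 1). *Mbtps1* (the higher) and *Mbtps2*, genes of the Golgi proteases that release SREBPs, had log2 fold changes of 0.0118 and 0.0750.

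Of 5 genes of the LXR arm 4 were lower (median -0.0895), and *Rxra*, the gene of the partner receptor, was the highest at 2386 ± 424 in control and 2574 ± 411 in irradiated libraries. Lower fitted levels were also found for 4 of 5 genes of lipoprotein uptake (median -0.11). *Apoe*, encoding the main apolipoprotein of the brain, had the highest level of that list, 31640 ± 2815 in control and 32026 ± 1503 in irradiated libraries (a log2 fold change of 0.02 with SE 0.11). Intracellular sterol handling, 5 of 6 lower (median -0.0672), was headed by *Npc2*, whose product moves cholesterol out of lysosomes, at 6583 ± 431 in control and 6021 ± 327 in irradiated libraries. The 3 oxysterol enzymes tested were all lower (median -0.0698), with *Cyp7b1* the highest at 1082 ± 79.4 in control and 920.2 ± 145 in irradiated libraries, and *Ch25h* was below the filter. In the isoprenoid branch, which makes dolichol, ubiquinone side chains and prenyl groups, 1 of 5 was lower and 4 higher (median 0.0225), with *Nus1* the highest at 2420 ± 279 in control and 2625 ± 137 in irradiated libraries. Of 7 other lipogenic genes 6 were lower (median -0.16), with *Elovl5*, an elongase gene, the highest at 8399 ± 977 in control and 7499 ± 431 in irradiated libraries. Both further exporters were lower, and *Abca7*, the higher of them, stood at 657 ± 57.7 in control and 538 ± 106 in irradiated libraries (a log2 fold change of -0.30 with SE 0.16).

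All 37 members are protein-coding genes in GENCODE M21. Of these, 14 have a gene span that overlaps an annotated gene on the opposite strand, and no source names a stranded count. Reads from exons that lie over each other could then not be told apart, and whether exons overlap was not examined. The 14 include *Hmgcs1*, *Fdft1*, *Lss*, *Cyp51*, *Lbr* and *Acss2*. *Tm7sf2* overlaps *Vps51* on its own strand, and 9.87% of its 50-base windows are shared with it.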

How the data were processed

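Poly(A)-selected RNA of sorted cells, 100 ng per library per the labels' protocols, was sequenced in 6 libraries. Per the submitters' processing notes, HTSeq, DESeq and build mm10 were used. The aligner and strandedness were not given in the sources used here. Deposited values are a signal per gene, read counts divided by a DESeq size factor with 1 added, as judged from the values. After the 1 was taken off, 100% of values came out as whole reads (tolerance 0.001 reads). No listed gene had fewer than 15 reads in total.

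Tests were two-sided limma-trend (version 3.58.1 under R 4.3.3) of log2(scaled count + 1) for the 16674 genes whose mean scaled count reached 10, with Benjamini-Hochberg adjusted p below 0.05. edgeR 4.0.16 and DESeq2 1.42.0 on the recovered reads, other filters, a pseudocount of 10, TMM scaling, a replicate block, a Y-linked covariate and leaving out each library were alternatives. Across genes, which are not independent replicates, the deviations of libraries with the same number had correlations of 0.305, 0.151 and 0.451. Libraries with different numbers had correlations from -0.342 to 0.050. The same-number values were each above 0.1, which was read as a pairing by number, and that limit was not tested. Deviations were taken from the mean of the 3 libraries of a group, so high values for some pairs force low values for others. The low values between different numbers are therefore no separate evidence of pairing. Summed Y-linked transcripts rose with the number in both groups, and their part in these correlations was not tested. The pairing rests on the same data that the block fits and pair counts use, as no label says what a number stands for. Intervals, SEs and p-values are from the fit without the replicate block unless the block is named.

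The members and all lists were chosen with earlier results of these data known. Library values are given for members whose groups did not overlap and, in each step, for the member with the highest mean and the one with the largest log2 fold change. *Lbr* was added after its values were seen. Other pathway genes are named where the unadjusted p was below 0.05 or the level was the highest of their list. *Mbtps2*, *Ch25h*, *Aqp4*, *Gja1*, *Pax2*, *Mog*, *Zic1*, *Atoh1*, *Slc1a3*, *Sparcl1*, *Gdf10* and *Ptprz1* were named after their values were seen. Coordinates, 1-based, and exon lengths are from GENCODE M21 on GRCm38 (mm10), matched by gene ID without its version.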

Additional observations from a re-analysis of the deposited data

How the results depend on the processing

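No member was called under any of the 15 alternatives, and the lowest adjusted p of a member was 0.197, for *Tm7sf2* in edgeR with the replicate block. The median of the enzymes stayed negative throughout, from -0.32 to -0.11, as did that of all members, from -0.25 to -0.0836, and of the fatty acid genes, from -0.24 to -0.0470. The number of members with an unadjusted p below 0.05, 7 in the main test, was 13 in limma and in edgeR with the replicate block, 2 with the Y-linked covariate, and 0 to 11 with a library left out (1 without control replicate 1, 2 without control replicate 3, 0 without irradiated replicate 2, 2 without irradiated replicate 3 and 11 without irradiated replicate 1). The number of genes called over the whole table, 9, was 104 in DESeq2, 25 in limma with the replicate block, 28 with the Y-linked covariate, and 1 to 29 with a library left out (2, 1 and 3 without control replicates 1, 2 and 3, and 29 and 3 without irradiated replicates 1 and 2). The block changed no call of a member. The cause of these changes was not tested.

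The sign of the fitted change turned in 35 of 555 member values, over 16 of the 37 members. With the Y-linked covariate it turned to 0.0695 for *Acat2*, 0.0366 for *Mvk*, 0.11 for *Pmvk*, 0.0582 for *Cyp51*, 0.0961 for *Scap*, 0.13 for *Fads2*, 0.0842 for *Scd2*, -0.0990 for *Acaca*, -0.0836 for *Abca1* and -0.14 for *Abcg1*. Under TMM scaling, edgeR, DESeq2 and edgeR with the block *Acaca* turned to -0.00800, -0.0160, -0.00800 and -0.00850, and *Lbr* to 0.000800 in DESeq2. With a library left out the values ran from -0.14 to 0.11 for *Lbr*, -0.12 to 0.0376 for *Hsd17b7*, -0.0410 to 0.0842 for *Ebp*, -0.13 to 0.0985 for *Ggps1*, -0.23 to 0.0283 for *Insig2*, -0.0792 to 0.0586 for *Scap*, -0.0848 to 0.12 for *Acaca*, -0.0760 to 0.18 for *Elovl6* and -0.13 to 0.0681 for *Fads2*. The median of all genes moved by at most 0.0115, without irradiated replicate 3. With 3 libraries per group the intervals of the members allow differences of either sign for 30 of the 37.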
